A study of Homo sapiens with 12 samples.

Results

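The interaction of BCL3 knockdown with temozolomide is the difference between 2 responses: the change that temozolomide (TMZ) made in cells given siRNA against BCL3, minus the change it made in cells given control siRNA. It was measured with all 12 arrays of the series, and its members were the 10686 genes, on 14270 probes, that carried a gene symbol and were detected (detection p-value under 0.01) on at least 3 arrays, of 20046 genes with a named probe. At the edge of that filter, 312 of the tested probes were detected on exactly 3 arrays, and 511 further named probes were detected on exactly 2 and left out. A value above 0 means that a transcript was higher after TMZ, relative to DMSO, in BCL3 siRNA cells than in control siRNA cells, and a value below 0 means the opposite. The 4 groups, with 3 arrays each, were U87 cells with control siRNA and DMSO, control siRNA and 100 µM TMZ for 24 h, BCL3 siRNA and DMSO, and BCL3 siRNA and 100 µM TMZ for 24 h. U87 is an established human glioma line, DMSO is the drug's solvent, and all groups had been transfected. The labels give neither the number of siRNA sequences against BCL3 nor the time from transfection to drug, and they do not say whether replicates came from different cultures. The p-values below therefore reflect the scatter among these arrays, which may be technical.

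BCL3 belongs to the nuclear branch of the I-kappa-B proteins. Unlike the classical members, which hold NF-kB in the cytoplasm, it works in the nucleus with the p50 and p52 subunits of NF-kB, where it can raise or lower transcription. TMZ is an alkylating drug used against glioblastoma. It methylates DNA, and the lesions that escape the repair enzyme MGMT are processed by mismatch repair into breaks that activate the checkpoint kinases and p53. The interaction asks whether any transcript answered the drug differently when BCL3 was reduced.

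The targeted transcript was checked first. On the log2 scale of normalized intensity, BCL3 measured 7.47, 7.39 and 7.25 on the arrays of control siRNA with DMSO, and 7.26, 7.28 and 7.36 with TMZ. With BCL3 siRNA it measured 6.41, 6.28 and 6.46 with DMSO, and 6.57, 6.52 and 6.54 with TMZ. Every BCL3 siRNA array lay below every control siRNA array, and with BCL3 siRNA the TMZ arrays lay above the DMSO arrays. The knockdown was -0.98 under DMSO and -0.76 under TMZ, so the interaction of BCL3 itself was 0.23 (SE 0.10, 95% interval 0.01 to 0.44, adjusted p = 0.745 by limma). With array brightness as a covariate, added after the data had been seen, it was 0.13. The BCL3 transcript thus remained measurable in both arms of the comparison.

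Some facts of the arrays bear on every value. Of 12 markers of glioma lines, 8 passed the detection filter, and VIM, CD44, NES and TNC were detected on all 12 arrays. Of the astrocyte markers among them, SLC1A3 was also detected on all 12 arrays, while GFAP, S100B, AQP4 and ALDH1L1 were detected on none. Between 34.6% and 37.7% of the 47320 probes were detected per array, and arrays of 1 group correlated at 0.9949 to 0.9968. In the control siRNA arm the mean raw intensity per array was 292.2 ± 25.8 under DMSO and 262 ± 1.39 under TMZ (SD, n = 3). In the BCL3 siRNA arm it was 247.8 ± 15.8 under DMSO and 267 ± 22.1 under TMZ. Overall brightness thus went down with TMZ in one arm and up in the other, and its own interaction was 0.26 on the log2 scale (exact permutation test over 400 arrangements, two-sided p = 0.045, smallest possible 0.005). Values were quantile normalized between arrays. Values from a fit with brightness as a covariate are given for single genes whose printed estimate it moved by over 1.5 times. Second probes were not all covered, so a missing value does not mean that an estimate was stable.

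No transcript passed the test of the interaction. With limma and Benjamini-Hochberg adjustment over all probes, 0 of 14270 had an adjusted p under 0.05, a share of 0%, and the lowest adjusted p was 0.141, for ADI1. At an unadjusted p under 0.05, 947 probes or 6.64% stood out, 471 higher (3.3%) and 476 lower (3.34%). With 1 probe a gene, the brightest, 657 of 10686 genes or 6.15% did. With each array's log2 mean raw intensity as a covariate, a fit added after the data had been seen, that share was 5.21% and the lowest adjusted p was 0.785. Other settings gave counts of 0, 1 or 16. PTGES3 was the 1 probe that passed in 4 of them, and 16 probes passed, all higher, under median scaling, which moved the median interaction of all probes to 0.25.

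**Figure D1:**
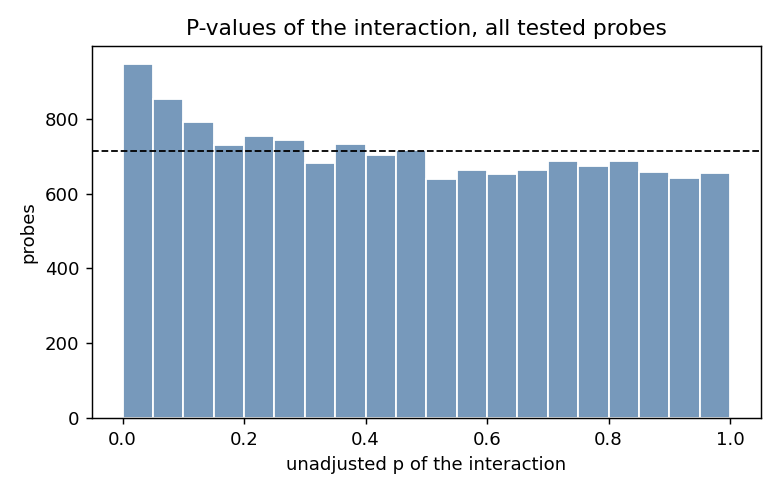
Histogram of the unadjusted p-values of the interaction for 14270 probes, in bins of 0.05 on the x axis with the number of probes on the y axis; the dashed line marks an even spread, 713.5 probes a bin. The lowest bin holds 947 probes.

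The estimates were small and their intervals bound what could have been missed. The median absolute interaction was 0.091 on the log2 scale, the extremes were -0.78 and 0.74, and 0 estimates reached 1. The 95% interval reached a median of 0.25 to either side of the estimate. It lay wholly within 1 log2 unit, a 2-fold difference of response, for 14232 probes (99.7%), and wholly within 1.5-fold for 12676 probes (88.8%). These intervals hold for each probe alone, and values include an offset of 16 that understates changes of dim probes.

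The TMZ effects themselves, measured on separate arrays, give the setting. TMZ changed 91 probes with control siRNA (0.638%, with 48 or 0.336% higher and 43 or 0.301% lower) and 97 with BCL3 siRNA (0.68%, with 53 or 0.371% higher and 44 or 0.308% lower) at an adjusted p under 0.05. Median scaling turned these splits to 17 higher and 119 lower with control siRNA, and 106 higher and 5 lower with BCL3 siRNA. Passed in both were 47 probes, 51.6% of the first list and 48.5% of the second, of which 29 rose, 18 fell and 0 went opposite ways. Across all 14270 probes, which are not independent, the effects of the 2 arms had a Pearson correlation of 0.37 and a Spearman correlation of 0.34, and 62.4% had the same sign.

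**Figure D2:**
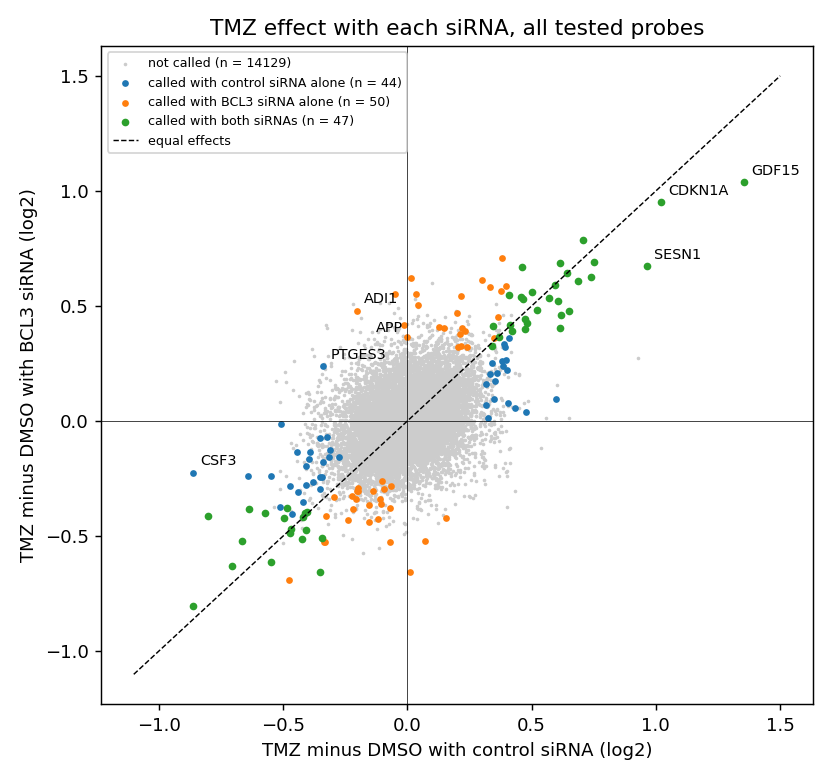
Each of 14270 probes by its TMZ effect with control siRNA (x axis) and with BCL3 siRNA (y axis), both log2 TMZ minus DMSO; the dashed line marks equal effects and distance from it is the interaction. Green points passed the test with both siRNAs (n = 47), blue with control siRNA alone (n = 44) and orange with BCL3 siRNA alone (n = 50); the green points lie in the 2 quadrants where both effects have the same sign.

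A probe that passed in 1 arm and missed in the other is not thereby shown to respond differently, and a list chosen in 1 arm leans toward that arm. Of the 91 probes called with control siRNA, 75 had a smaller effect with BCL3 siRNA, and of the 97 called with BCL3 siRNA, 66 had a larger one. The TMZ effect averaged over both siRNAs, added after the data had been seen, avoids this lean because its error does not enter the interaction in a balanced design. By that effect 487 probes passed (3.41%), with 1.74% higher and 1.67% lower, or 3.64% of genes with 1 probe each. Of these, 231 had a larger and 256 a smaller response with BCL3 siRNA, with a median difference of -0.006 in the direction of the response. At an unadjusted p under 0.05 stood 49 of the 487, 25 larger and 24 smaller with BCL3 siRNA, and the lowest adjusted p was 0.519. That count is not set against all probes, since the 487 were chosen by a test that shares each probe's residual variance with the interaction.

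Genes activated by p53 were the list with the most TMZ rises, in both arms. Of 45 measured members of the p53 list, 16 rose with control siRNA, against 0.421% of all genes, and 17 rose with BCL3 siRNA, against 0.421%; 15 rose in both. Under median scaling the counts of rises were 9 and 19. For the interaction 0 passed, 2 members were higher and 3 lower at an unadjusted p under 0.05 (2.58% and 3.57% of all genes), 23 estimates lay above 0 and 22 below, and the median was 0.00 against -0.01 for all genes. Among the 26 members that rose in the averaged effect (2% of all genes rose), the response was larger with BCL3 siRNA for 13 and smaller for 13.

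CDKN1A encodes p21, the inhibitor of cyclin-dependent kinases through which p53 halts the cell cycle. It measured 10.92, 10.88 and 10.94 with control siRNA and DMSO and 11.97, 11.90 and 11.94 with TMZ. The BCL3 siRNA arrays measured 11.38, 11.42 and 11.48 with DMSO and 12.40, 12.39 and 12.35 with TMZ. TMZ separated the arrays completely in both arms, from a higher start with BCL3 siRNA. The rise was 2.03-fold with control siRNA (adjusted p = 8.85e-07) and 1.94-fold with BCL3 siRNA (adjusted p = 4.13e-06), and the interaction was -0.07 (SE 0.08, 95% interval -0.24 to 0.10, adjusted p = 0.915). The interval lay within 1.5-fold in either direction.

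GDF15, a secreted stress cytokine of the TGF-beta family and a p53 target, gave the largest TMZ rise in each arm. It measured 6.02, 6.01 and 6.02 with control siRNA and DMSO and 7.45, 7.39 and 7.28 with TMZ. With BCL3 siRNA it measured 6.12, 6.01 and 6.21 with DMSO and 7.17, 7.13 and 7.15 with TMZ. The 3 TMZ arrays of BCL3 siRNA lay below the 3 of control siRNA, while the DMSO arrays overlapped. The rise was 2.56-fold against 2.06-fold, an interaction of -0.31 (SE 0.09, 95% interval -0.52 to -0.11, unadjusted p = 0.00529) that did not pass after adjustment (adjusted p = 0.616). Under median scaling the GDF15 interaction was -0.06.

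SESN1, a sestrin that restrains mTORC1 signalling under stress, also rose in both arms. It measured 5.68, 5.73 and 5.84, then 6.74, 6.68 and 6.72 with TMZ, in control siRNA cells, and 6.88, 7.02 and 7.06, then 7.68, 7.58 and 7.73 with TMZ, in BCL3 siRNA cells. Both arms separated, at a higher level throughout with BCL3 siRNA, and the interaction was -0.29 (95% interval -0.50 to -0.08, adjusted p = 0.658). TP53INP1, a p53-induced regulator of autophagy and cell death, rose in both arms on 2 probes, with interactions of -0.06 and 0.08. With brightness as a covariate these probes gave 0.02 and 0.17. DDB2, which recognises ultraviolet damage in DNA, rose by 0.69 and 0.61, an interaction of -0.08 (95% interval -0.35 to 0.19).

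Other p53 targets had larger estimates in either direction. TOB1, an antiproliferative protein, rose with control siRNA by 0.48 and measured 0.04 higher with BCL3 siRNA, an interaction of -0.44 (95% interval -0.71 to -0.17, adjusted p = 0.613). TP53I3, a quinone oxidoreductase linked to p53-dependent cell death, went the other way, with effects of 0.38 and 0.71 of which the second passed, and an interaction of 0.33 (adjusted p = 0.745), or 0.58 with brightness as a covariate. The apoptosis effector BAX had the most negative estimate of the list, -0.65, with a 95% interval of -1.31 to 0.00 and a second probe at -0.25. Its DMSO arrays with control siRNA ranged from 7.36 to 8.44, and those of the other groups from 8.61 to 9.28. MDM2, the ubiquitin ligase that limits p53, was dim, with effects of 0.36 and 0.51 that did not pass and an interaction of 0.15 (95% interval -0.22 to 0.52).

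The sequences before the start sites of GDF15 and CDKN1A are shown because these genes rose by the largest amounts in both arms, and were taken from RefSeq on GRCh38.p14: GDF15 at chr19:18385908-18386157, plus strand, and CDKN1A at chr6:36678464-36678713, plus strand, each 250 bases, 5′ to 3′ on the gene's strand. Capitals mark letters that match the NF-kB motif, the p53 decamer or TGANTCA, the AP-1 motif, searched on both strands; the motifs were scored separately.
GDF15: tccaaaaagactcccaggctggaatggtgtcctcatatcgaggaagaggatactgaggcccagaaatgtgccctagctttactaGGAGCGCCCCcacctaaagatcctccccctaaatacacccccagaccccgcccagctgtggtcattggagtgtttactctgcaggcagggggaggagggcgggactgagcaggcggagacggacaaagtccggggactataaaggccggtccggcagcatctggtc
CDKN1A: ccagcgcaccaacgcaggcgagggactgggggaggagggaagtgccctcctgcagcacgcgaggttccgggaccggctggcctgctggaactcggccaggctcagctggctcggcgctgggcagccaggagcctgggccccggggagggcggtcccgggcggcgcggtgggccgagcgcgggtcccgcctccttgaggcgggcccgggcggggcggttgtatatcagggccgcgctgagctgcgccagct
The GDF15 window held 1 NF-kB match and the CDKN1A window none, and neither held a p53 decamer or TGANTCA. In 35114 windows of the same length, 9.96% held the NF-kB motif, 5.57% the p53 decamer and 6.57% TGANTCA; no window shown held more than 1 match. A match is a run of letters and not a shown binding site. Sites beyond these 250 bases were not searched, so a window without a match does not mean a gene without a site.

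Several other genes with a large TMZ effect or a large knockdown effect had intervals that included 0. SUGCT, a mitochondrial CoA transferase, rose by 0.64 in each arm, an interaction of 0.00 (95% interval -0.22 to 0.22). AARS2, the mitochondrial alanyl-tRNA synthetase, rose by 0.74 and 0.63. F3, the tissue factor that starts coagulation, fell by 0.47 with control siRNA and by 0.49 with BCL3 siRNA, an interaction of -0.02 (95% interval -0.23 to 0.20) on the probe with the larger effects. A second F3 probe gave -0.39 and -0.16, an interaction of 0.23 (95% interval -0.01 to 0.47). Under DMSO, F3 was 2.12 higher on the log2 scale with BCL3 siRNA. HMOX1, the haem-degrading oxygenase, and CDK6, a G1 kinase, were 2.16 and 1.91 higher with BCL3 siRNA under DMSO, and their interactions were -0.01 and -0.05. CA2, a carbonic anhydrase, had an interaction of -0.14 (95% interval -0.41 to 0.13, adjusted p = 0.88), and its second probe gave -0.07. With brightness as a covariate CA2 gave -0.05, CDKN1A -0.04 and AARS2 -0.07. The same fit gave SUGCT -0.08, HMOX1 -0.09 and CDK6 -0.12. The F3 probe with the larger effects gave 0.07, so its sign turned. The MGMT probe was detected on 0 arrays, with raw intensities of 84.4 to 98, and was not tested.

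**Figure D3:**
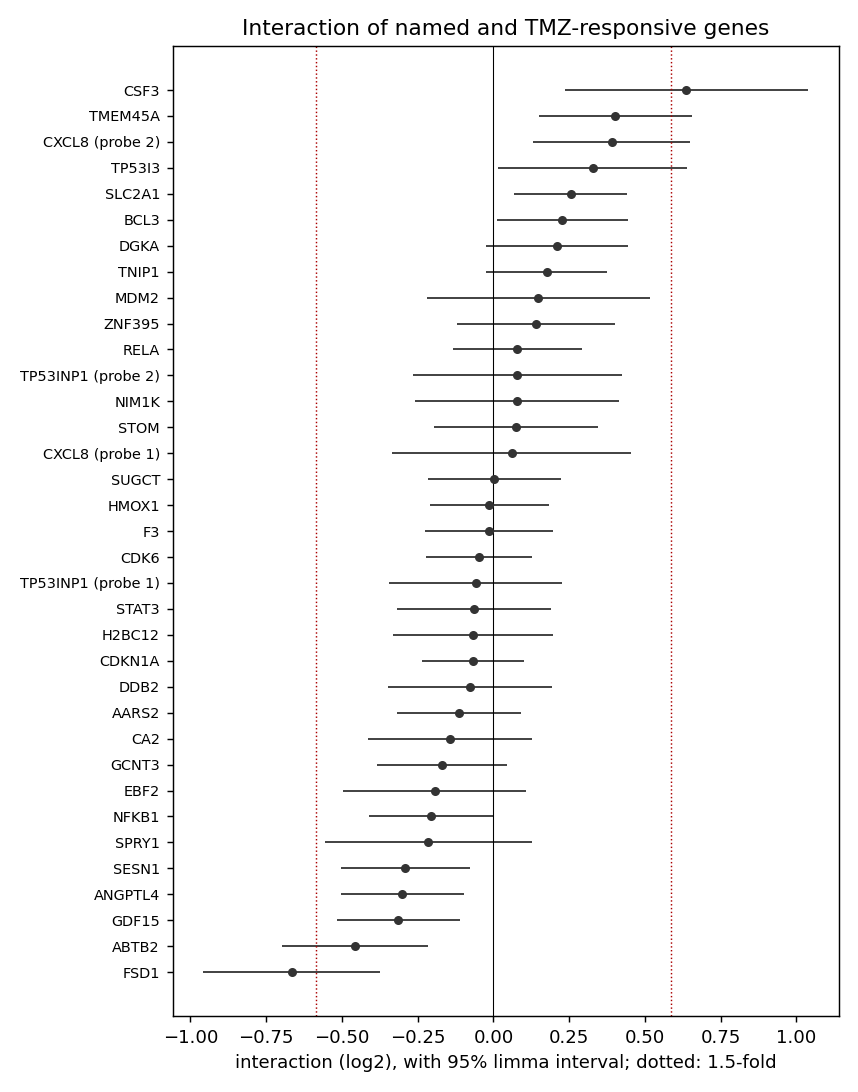
Interaction (points, log2, x axis) with its 95% limma interval for BCL3, the fixed genes and the genes with the largest TMZ effects in either arm (y axis); dotted lines mark 1.5-fold. None passed after adjustment, and CDKN1A at -0.07, F3 at -0.02 and SUGCT at 0.00 lie near the middle, between FSD1 at -0.67 and CSF3 at 0.64.

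Secreted cytokines and NF-kB targets included falls with TMZ, and none of their interactions passed. Of 13 measured cytokines, chemokines and colony-stimulating factors, 3 fell with control siRNA (0.328% of all genes fell) and 1 with BCL3 siRNA (0.328%). In the averaged effect 4 fell and 1 rose, against 1.64% and 2% of all genes. The response of the 4 was larger with BCL3 siRNA for 0 and smaller for 4. The interactions of the 13 were above 0 for 11 and below 0 for 2, where all genes had 5037 above and 5649 below. The median was 0.14 against -0.01 for all genes. Of the 13, 0 passed, and 2 were higher at an unadjusted p under 0.05 (2.58% of all genes). Under median scaling the median was 0.42 against 0.25 for all probes, and under cyclic loess it was 0.14. Of 28 measured NF-kB targets, 4 fell with control siRNA and 2 with BCL3 siRNA, and the median interaction was 0.06. Under DMSO the cytokines had a median difference of -0.55 between BCL3 siRNA and control siRNA, against 0.01 for all genes.

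CSF3, the granulocyte colony-stimulating factor, had the highest estimate of the list. It measured 6.92, 6.65 and 6.62 with control siRNA and DMSO and 5.87, 5.96 and 5.79 with TMZ. The BCL3 siRNA arrays measured 5.14, 5.00 and 4.91 with DMSO and 4.44, 4.97 and 4.97 with TMZ, and 1 of those TMZ arrays did not detect it. TMZ separated the control arm, while the BCL3 siRNA arrays overlapped. It fell by 0.86 with control siRNA and measured -0.22 with BCL3 siRNA, an interaction of 0.64 (SE 0.19, 95% interval 0.24 to 1.04, adjusted p = 0.613). A second CSF3 probe was detected on no BCL3 siRNA array, so its interaction rests on background there and is not given. With array brightness as a covariate the first probe gave 0.37 (unadjusted p = 0.106).

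CXCL8, or interleukin-8, gave different interaction estimates on its 2 probes, with intervals that overlapped. The brighter probe measured 11.03, 10.88 and 10.81, then 10.04, 10.12 and 10.15 with TMZ, in control siRNA cells, and 10.19, 10.21 and 10.22, then 9.61, 9.95 and 9.83 with TMZ, in BCL3 siRNA cells. TMZ separated the arrays downward in both arms. This probe fell by 0.80 with control siRNA and by 0.41 with BCL3 siRNA, an interaction of 0.39 (95% interval 0.13 to 0.65, adjusted p = 0.647). The other probe measured -0.86 and -0.80, an interaction of 0.06 (95% interval -0.33 to 0.45). With array brightness as a covariate the CXCL8 probes gave 0.22 (unadjusted p = 0.135) and -0.31, so the sign of the second turned. CCL2, a monocyte chemoattractant, had an interaction of 0.34 (unadjusted p = 0.0518, adjusted p = 0.75). NFKB1, which encodes the p50 partner of BCL3, had -0.21 (unadjusted p = 0.0482, adjusted p = 0.75), RELA had 0.08 and STAT3 had -0.06. STAT3 gave -0.19 with brightness as a covariate.

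Early response genes were mixed. Of 24 measured members of the AP-1 and immediate early list, 2 were higher and 2 lower at an unadjusted p under 0.05 (2.58% and 3.57% of all genes), and 0 passed. MAFF, a small Maf transcription factor, measured 6.13, 6.20 and 6.01 with control siRNA and DMSO and 5.55, 5.75 and 5.51 with TMZ. With BCL3 siRNA it measured 5.12, 5.42 and 5.41 with DMSO and 5.30, 5.35 and 5.26 with TMZ. It fell with control siRNA by 0.51 and overlapped between treatments with BCL3 siRNA, from a lower start, and its interaction was 0.49 (95% interval 0.22 to 0.77, adjusted p = 0.613), with 0.26 on a second probe. Another MAFF probe was detected in 1 group alone and is not given. EGR1, a zinc finger factor, had 0.23, or 0.07 with brightness as a covariate, and IER2 had -0.51 (adjusted p = 0.647).

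Genes of hypoxia and glycolysis included falls with TMZ in both arms. Of 41 measured members, 11 fell with control siRNA (0.328% of all genes; 0.749% in either direction) and 10 with BCL3 siRNA (0.328%), 8 of them in both, with median effects of -0.16 and -0.22. In the averaged effect 20 fell, against 1.64% of all genes, 8 with a larger and 12 with a smaller response with BCL3 siRNA. Under median scaling 11 and 1 fell. The interaction was above 0 for 20 and below 0 for 21, with 2 higher and 3 lower at an unadjusted p under 0.05 (2.58% and 3.57% of all genes) and 0 past the test. SLC2A1, the glucose transporter GLUT1, fell less with BCL3 siRNA by estimate, at -0.64 against -0.38 (interaction 0.25, 95% interval 0.07 to 0.44, adjusted p = 0.658). ANGPTL4, a lipase inhibitor induced by hypoxia, fell more by estimate, at -0.35 against -0.65 (interaction -0.30, 95% interval -0.50 to -0.10, adjusted p = 0.647), while a second probe gave -0.16. Another ANGPTL4 probe was not detected in either TMZ group and is not given.

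Mitotic genes had small interaction estimates that lay mostly below 0. Of 40 measured G2/M and mitosis genes, 34 had an interaction below 0 and 6 above, the median was -0.09 against -0.01 for all genes, 0 passed, and 6 were lower at an unadjusted p under 0.05 (3.57% of all genes). Under median scaling the sign turned, with a median of 0.21 against 0.25 for all probes and 29 of 40 below that level. With brightness as a covariate 4 were lower and the median was -0.12. Leaving out 1 array at a time gave medians of -0.11 to -0.08, with 3 of the 40 lower at an unadjusted p under 0.05 without replicate 2 of control siRNA with DMSO, replicate 2 of control siRNA with TMZ, replicate 2 of BCL3 siRNA with DMSO or replicate 1 of BCL3 siRNA with TMZ, and 4 to 7 without each of the others. After quantile normalization, the median TMZ change of these genes reached 0.14 in the control siRNA arm, against 0.05 in the BCL3 siRNA arm. In the averaged effect 5 rose and 0 fell, against 2% and 1.64% of all genes. By these medians the list rose less in the BCL3 siRNA arm and did not fall. Genes of 1 list share their cells and arrays and are not independent measurements. In these bulk samples a different number of cells in mitosis and a different amount of mitotic RNA per cell cannot be told apart.

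KIF2C, a kinesin that depolymerises microtubules at the centromere, had the lowest p among them. It measured 8.08, 8.05 and 8.21 with control siRNA and DMSO and 8.44, 8.31 and 8.36 with TMZ, and in BCL3 siRNA cells 8.15, 8.23 and 8.22 with DMSO and 8.18, 8.10 and 8.14 with TMZ. The control arm separated upward and the BCL3 siRNA arm overlapped, for an interaction of -0.32 (95% interval -0.52 to -0.12, adjusted p = 0.613). AURKA, the mitotic kinase Aurora A, gave -0.24 and -0.25 on its 2 probes, and PRC1, a spindle midzone protein, gave -0.26. With brightness as a covariate KIF2C gave -0.20 (unadjusted p = 0.081) and PRC1 -0.12. None of these 3 genes changed with TMZ past the threshold in either arm.

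In the lists of DNA repair, replication and apoptosis, 0 interactions passed, and the counts at an unadjusted p under 0.05 are read against 2.58% higher and 3.57% lower among all genes. None of 16 measured genes of mismatch and alkylation repair had an unadjusted p under 0.05, and their estimates ran from -0.08 to 0.16. Of 24 measured genes of homologous recombination and the Fanconi pathway, 2 were higher at that level: RAD54B, a recombination translocase, at 0.34, and CHEK2, a checkpoint kinase, at 0.36, with -0.04 on a second probe. Of 38 measured G1/S and replication genes 2 were higher and 0 lower. Of 26 apoptosis regulators 1 was higher and 1 lower.

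Among the other lists, 27 of 40 genes of the unfolded protein response and ATF4 were below 0 with a median of -0.09, led by the stress regulator NUPR1 at -0.38 (adjusted p = 0.633, and -0.24 on a second probe), and under median scaling their median was 0.20 against 0.25 for all probes. Of 34 interferon genes 1 was higher and 3 lower at an unadjusted p under 0.05, against 2.58% and 3.57% of all genes. Of 30 oxidative phosphorylation genes 3 were lower (3.57% of all genes), with the complex I subunit NDUFS7 at -0.34. Of 8 drug efflux transporters 1 was lower (3.57% of all genes), ABCC5 at -0.28 (adjusted p = 0.613), with -0.03 on a second probe. With brightness as a covariate NUPR1 gave -0.19 and NDUFS7 -0.15. ITGB3, the integrin beta-3 subunit, and LUM, the matrix proteoglycan lumican, were the highest of 35 matrix and adhesion genes at 0.48 and 0.44.

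**Figure D4:**
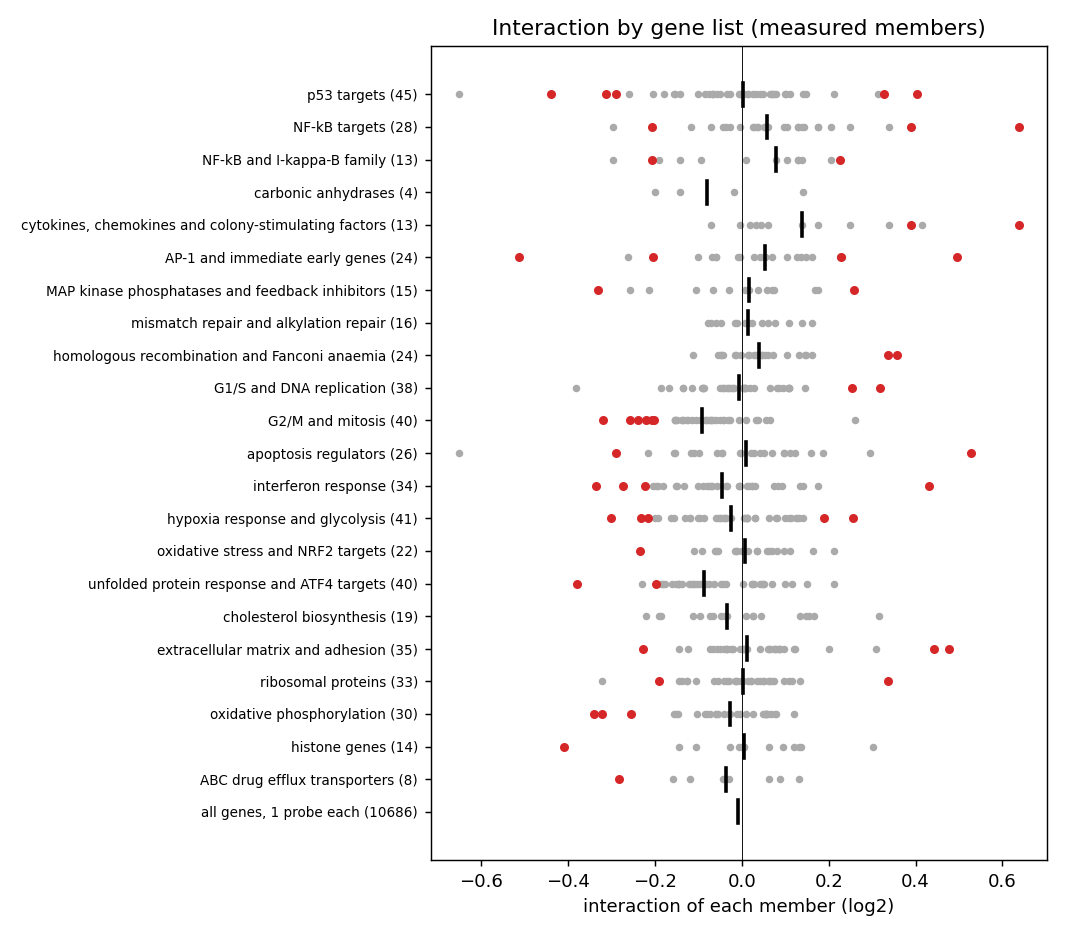
Interaction (log2, x axis) of every measured member of 22 gene lists (y axis, number of measured members in parentheses); red points have an unadjusted p under 0.05, grey points do not, and black bars are medians. The median is -0.09 for G2/M genes, 0.14 for cytokines and -0.01 for all genes, and no point passed after adjustment.

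The single genes with the strongest evidence were the 10 highest and 10 lowest by moderated t, none of which passed. The highest were ADI1, PTGES3, ZNF585A, TMPRSS12, MATN2, TRAF5, FAM200B, TBXA2R, APP and CNTROB, and the lowest were SSX3, FSD1, HSD17B11, DNAJC1, PPP1R26, TCEANC2, PPID, DGKA, ZNF276 and KCTD17. Their absolute interactions ran from 0.38 to 0.74 with adjusted p from 0.141 to 0.613. In 19 of the 20 the effects of TMZ had opposite signs in the 2 arms. Genes picked for an extreme difference between the arms lean toward opposite signs, so that count does not show a reversed response. They were dim, with a median level of 5.27 against 6.80 for all probes, and 17 lay under 6 on a scale whose floor is set by the offset. In 6 of them, ZNF585A, TMPRSS12, MATN2, TBXA2R, HSD17B11 and ZNF276, at least 1 group had no array that detected the probe, so its mean there is only a bound.

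ADI1, a dioxygenase of the methionine salvage pathway, had the lowest p. It measured 4.94, 5.04 and 4.89 with control siRNA and DMSO and 4.80, 4.83 and 4.65 with TMZ. With BCL3 siRNA it measured 5.03, 5.04 and 4.91 with DMSO and 5.48, 5.45 and 5.49 with TMZ. TMZ arrays lay below DMSO arrays in the control arm and above them with BCL3 siRNA. The effects were -0.20 (adjusted p = 0.209) and 0.48 (adjusted p = 0.00671), and the interaction was 0.68 (SE 0.10, 95% interval 0.47 to 0.89, unadjusted p = 9.87e-06, adjusted p = 0.141). Only 1 probe measured ADI1, and with brightness as a covariate it gave 0.66 (adjusted p = 0.785). The probe was dim, and 2 of the 3 arrays of control siRNA with TMZ detected it. Over 28 alternative settings its estimate ran from 0.22 to 0.80.

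PTGES3 encodes p23, a co-chaperone of HSP90, and was well above background. It measured 8.13, 8.03 and 7.88 with control siRNA and DMSO and 7.67, 7.65 and 7.70 with TMZ. The BCL3 siRNA arrays measured 7.81, 7.88 and 7.84 with DMSO and 8.10, 8.06 and 8.09 with TMZ. It fell with control siRNA by 0.34 and was 0.24 higher with BCL3 siRNA (adjusted p = 0.126), with no overlap in either arm. The interaction was 0.58 (SE 0.09, 95% interval 0.37 to 0.78, unadjusted p = 3.67e-05, adjusted p = 0.262). Its adjusted p was 0.0277 with normexp by maximum likelihood and 0.0195 without background correction. It was 0.0376 with an offset of 50 and 0.0219 with trended, robust moderation. With brightness as a covariate the estimate was 0.54 (unadjusted p = 0.000906, adjusted p = 0.785, the lowest of any probe in that fit).

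The 250 bases before these 2 genes are shown because they had the lowest adjusted p of the interaction: ADI1 at chr2:3519532-3519781, minus strand, and PTGES3 at chr12:56688285-56688534, minus strand, RefSeq on GRCh38.p14, with capitals as above.
ADI1: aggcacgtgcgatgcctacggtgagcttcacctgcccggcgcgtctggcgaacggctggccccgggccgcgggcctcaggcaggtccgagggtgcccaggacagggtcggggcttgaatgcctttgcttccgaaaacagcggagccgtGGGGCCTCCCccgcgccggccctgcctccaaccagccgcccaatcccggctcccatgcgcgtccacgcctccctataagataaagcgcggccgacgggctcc
PTGES3: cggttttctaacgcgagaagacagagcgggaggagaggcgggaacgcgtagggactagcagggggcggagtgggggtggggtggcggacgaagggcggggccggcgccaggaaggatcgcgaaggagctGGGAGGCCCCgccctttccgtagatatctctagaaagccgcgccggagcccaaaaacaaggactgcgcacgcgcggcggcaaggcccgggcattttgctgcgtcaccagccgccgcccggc
Each window held 1 NF-kB match and no p53 decamer or TGANTCA. Of 51 genes named by rule outside the lists, 40 had a window, and the first listed for each gene was scored. Of the 40, 6 held the NF-kB motif, 2 held TGANTCA and 0 held the p53 decamer. The shares in all 35114 windows were 9.96%, 6.57% and 5.57%.

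SSX3, a cancer-testis family member, had the lowest t. It measured 5.29, 5.04 and 5.31, then 5.61, 5.40 and 5.57 with TMZ, in control siRNA cells, and 5.59, 5.58 and 5.52, then 5.26, 5.39 and 5.24 with TMZ, in BCL3 siRNA cells. TMZ arrays lay above DMSO arrays in the control arm and below them with BCL3 siRNA, for an interaction of -0.58 (95% interval -0.84 to -0.33, adjusted p = 0.519). SSX3 shares sequence with other SSX genes, and the probe may read more than 1 of them.

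APP, the amyloid precursor protein, was measured by 3 probes that pointed the same way. The probe with the highest t measured 8.72, 8.69 and 8.48 with control siRNA and DMSO and 8.59, 8.45 and 8.39 with TMZ. The BCL3 siRNA arrays measured 8.57, 8.68 and 8.66 with DMSO and 9.11, 8.99 and 8.89 with TMZ. The control arrays overlapped and the BCL3 siRNA arrays separated upward, an effect of 0.36 that did not pass (adjusted p = 0.0717). The interaction was 0.51 (95% interval 0.26 to 0.77, adjusted p = 0.613), and the other probes gave 0.59 and 0.31. Probes of other genes disagreed: for FSD1 the named probe gave -0.67 and the other 4 gave -0.17 to 0.27, for DGKA, a diacylglycerol kinase, 1 probe gave -0.50 and the other 0.21, for MATN2 the probes gave 0.60 and -0.19, and for HSD17B11 they gave -0.60, -0.02 and 0.17.

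**Figure D5:**
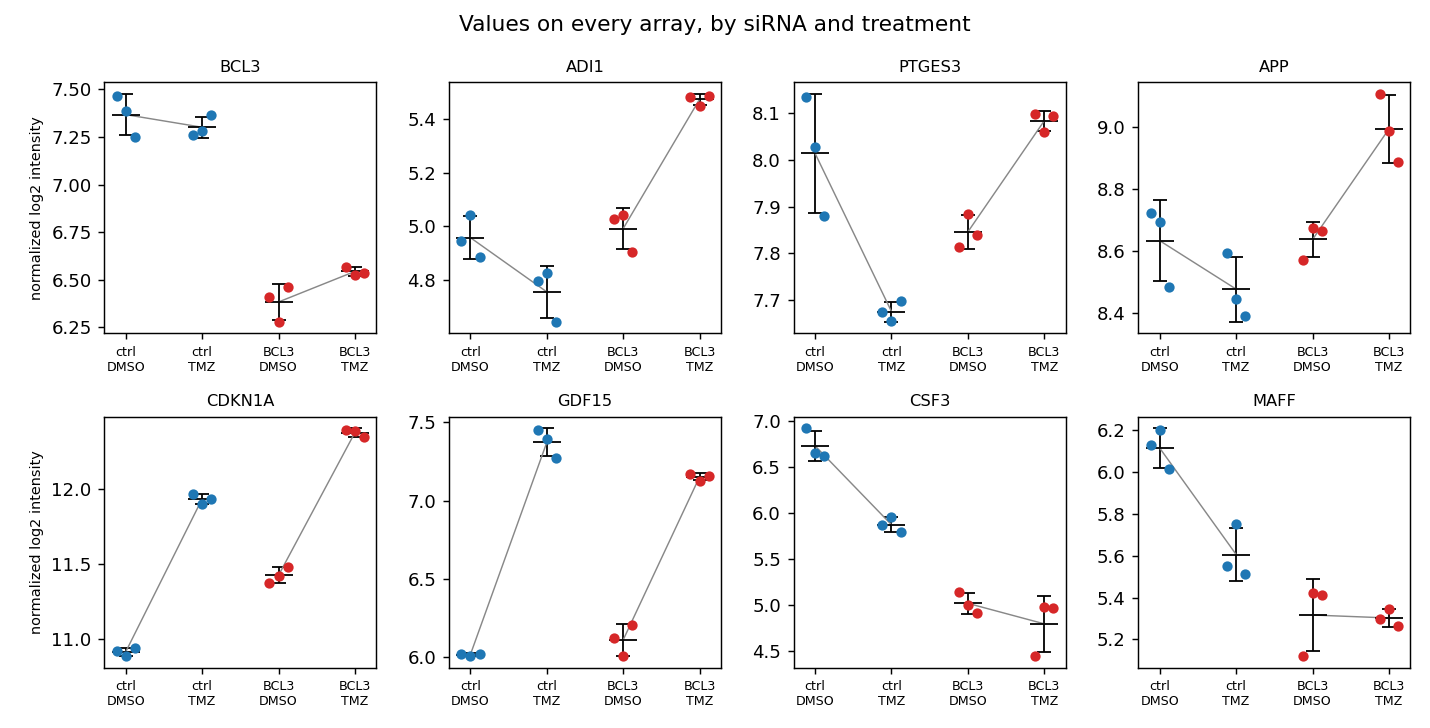
Normalized log2 intensity (y axis, scale set per gene) on each of the 12 arrays for 8 genes, by group (x axis); points are arrays, blue with control siRNA and red with BCL3 siRNA, bars are the mean and SD of 3 arrays, and grey lines join DMSO to TMZ within an siRNA. The lines are near parallel for CDKN1A (interaction -0.07) and cross in direction for ADI1 (0.68) and PTGES3 (0.58).

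Most markers of other cell types were below the detection filter. Of 15 leukocyte markers 5 passed the filter and 8 were detected on no array, including PTPRC, while CD68 and CSF1R were detected on all 12; of 11 epithelial markers 1 passed, of 13 neuronal and oligodendrocyte markers 3 and of 9 endothelial markers 1. LYZ, a leukocyte lysozyme, had an interaction of -0.64 (adjusted p = 0.613) on a dim probe, and EPCAM, an epithelial adhesion molecule, had -0.40 (adjusted p = 0.726). With brightness as a covariate LYZ gave -0.33 and EPCAM -0.73 (unadjusted p = 0.000455, adjusted p = 0.785). The summed raw intensity of the 5 leukocyte markers ran in the control siRNA arm from 2871.1 to 3313.3 under DMSO and from 2591.3 to 2789.3 under TMZ. In the BCL3 siRNA arm it ran from 2014.3 to 2309.8 under DMSO and from 2348.7 to 2689.9 under TMZ. These sums were not normalized. The mean raw intensity of all probes also went down with TMZ in the control siRNA arm and up in the BCL3 siRNA arm. The sums therefore do not show a change of leukocyte content. Whether these levels or array brightness play a part in single interactions was not tested beyond the fits with brightness as a covariate.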

How the data were processed

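RNA of 12 U87 samples was hybridised to Illumina bead arrays, 3 arrays per group, and groups were taken from the sample titles. The authors deposited non-normalized probe intensities and a detection p-value for each probe and array; the authors' table is described as non-normalized, and the scanner software is not given in the sources used here. Detection p columns carry no sample name, and each was assigned to an array by its rank agreement with that array's intensities. A second table deposited by the authors holds processed intensities and served as an alternative.

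Intensities were background corrected with neqc (offset 16), quantile normalized and log2 transformed in limma 3.58.1 (R 4.3.3). Probes needed 1 gene symbol and a detection p-value under 0.01 on 3 arrays. A model of 4 group means was fitted (8 residual and 4.769 prior degrees of freedom), tested with eBayes, two-sided, and adjusted by Benjamini-Hochberg over 14270 probes at 0.05. Lists used the brightest probe of each gene. The number of arrays limits the precision. The code was tested on simulated data.

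Members and lists were chosen with earlier results of these data known. Named by rule were BCL3, a fixed set of genes, the 10 highest and 10 lowest moderated t of the interaction, the 8 largest called rises and falls with TMZ per siRNA, and up to 4 members per list with the lowest interaction p. Second probes of named genes were given where they differed. Alternatives changed the background correction, offset, normalization, filter, probe choice, moderation, weights, block and each array.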

Additional observations from a re-analysis of the deposited data

How the results depend on the processing

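The count of 0 interaction probes became 1 (PTGES3) with normexp by maximum likelihood, without background correction, with an offset of 50 and with trended, robust moderation, and 16 under median scaling. It was 0 under the other settings, including each left-out array, where the lowest adjusted p was 0.0671. TMZ with control siRNA changed 91 probes; this became 330 with normexp, 437 without background correction, 292 with an offset of 50, 372 with trended, robust moderation, 177 with array weights, 6 when tested for more than 1.2-fold, 25 with brightness as a covariate, and 36 to 99 when 1 array was left out. The lowest count came without replicate 3 of control siRNA with TMZ. TMZ with BCL3 siRNA changed 97; this became 263, 294, 236 and 288 under the first 4 of these settings, 165 with detection on all 12 arrays, 2 when tested for more than 1.2-fold, 8 with only the 6 arrays compared, and 46 to 97 when 1 array was left out, lowest without replicate 3 of BCL3 siRNA with TMZ. The cause of these differences was not tested. With the replicate block the interaction count was 0 (lowest adjusted p 0.156), and the TMZ counts were 59 and 77. Same-numbered arrays correlated in their deviations at -0.158 to 0.196, over 0.1 in 4 of 18 pairs. The labels do not say whether equal numbers mark paired samples, and these correlations cannot settle it. Of 149 named probes, 144 passed under none of 29 settings, 5 passed under at least 1 (ADI1, PTGES3, APP, CSF3 and TMPRSS12), and 55 changed sign under at least 1. Signal over background limits the 17 of the 20 genes with the highest or lowest t that lay under 6 on the log2 scale.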

Other observations

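Some genes were read by several probes on the same samples, so their probes are not independent; those named here were chosen after their values were seen. Of 2862 such genes, 20 had at least 2 probes at an unadjusted interaction p under 0.05. Counting only the probes at that level, they had the same sign in 18, 15 higher and 3 lower, and opposite signs in 2. Detection in every group was not required. The 15 include CSF3 and MAFF, each through a probe left out above because whole groups did not detect it. Further probes of the 18 could differ, as for AKAP12, a scaffold protein, with 0.51 and 0.35 but also -0.08 and -0.11. HIF1A, the oxygen-regulated transcription factor subunit, had 3 probes at 0.24, 0.19 and 0.38. HYOU1, a chaperone of the endoplasmic reticulum, had 0.34 and 0.44, and UQCRB, a subunit of respiratory complex III, had 0.39 and 0.23. The opposite pairs were PIK3C2A, a phosphoinositide kinase, at -0.38 and 0.25, and RNF128, a ubiquitin ligase, at 0.30 and -0.34.

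Detected probes with no gene symbol were tested in a fit of all detected probes. Of 3835 such probes 0 passed, 353 (9.2%) had an unadjusted p under 0.05 and the lowest adjusted p was 0.423. Among all 18105 probes of that fit, 6.92% had an unadjusted p under 0.05.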
